A study of Homo sapiens with 4 samples.

Results

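The TGFβ superfamily ligands examined here were 10 genes, TGFB1, TGFB2, TGFB3, INHBA, INHBB, BMP2, BMP4, BMP6, BMP7 and GDF15, picked by gene symbol from a table of 58365 rows. Each symbol had 1 row. RNA-seq gave their levels in 4 libraries made from H1, a long-established line of human embryonic stem cells (hESCs), at day 8 of stepwise hematopoietic differentiation. All libraries shared the first stages, in which the cells received 40 ng/ml activin A with 50 ng/ml BMP4 for 2 days and then 40 ng/ml VEGF with 50 ng/ml bFGF for 3 days. For the last 3 days VEGF and bFGF were continued, in 2 libraries with the small molecule SB431542 (SB) and in 2 libraries labelled DMSO, the vehicle. Activin A and BMP4 protein were therefore supplied from outside early in every library, while the values below are the RNA of the cells' own genes. The study describes sequencing CD31+ cells, a step that the sample labels do not mention. Replicate numbers 1 and 2 stand in the titles, but the labels do not say whether the libraries came from separate cultures, and the study's general statement on independent experiments names no RNA-seq libraries. The p-values therefore measure only the spread between these libraries, which may be technical.

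Ligands of this family are made as precursors that furin-like proteases cut, and they act as dimers on pairs of type I and type II serine/threonine kinase receptors. TGFβs and activins signal mainly through SMAD2 and SMAD3, and BMPs mainly through SMAD1, SMAD5 and SMAD9. SB431542 blocks the kinase of the type I receptors for TGFβ, activin and nodal (the products of TGFBR1, ACVR1B and ACVR1C) and spares those for BMPs, so the comparison asks how the ligand genes were expressed when signaling from TGFβ and activin receptors was blocked.

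Library pairs that shared a group or a replicate number resembled each other over the 14909 genes tested. Their Pearson r of log2(FPKM + 1) lay between 0.956 (DMSO replicates 1 and 2) and 0.964 (DMSO replicate 2 and SB replicate 2). This is a description across genes that are not independent, and pairs that shared neither were not compared. FPKM counts fragments for each kilobase of a transcript, relative to the sequenced total, so levels can be compared between genes. Total fragments are unknown, but relative depth could be read from the steps in low values: the DMSO libraries stood at 94.0% and 90.1% of the deepest library, SB replicate 2, and SB replicate 1 at 75.6%. PECAM1, which encodes CD31, was abundant in every library, at 197 and 163 FPKM with DMSO and 182 and 153 FPKM with SB. In bulk RNA, fewer cells of a type and less RNA per cell cannot be told apart.

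No ligand passed the test between SB and DMSO with the group as the only term. The ligands nevertheless fell into distinct patterns of level: the BMP genes BMP2, BMP4 and BMP6, and TGFB2, stood lower in both SB libraries than in both DMSO libraries, with SB means of 42.3%, 32.8%, 30.0% and 27.6% of the DMSO means in that order. TGFB1 and GDF15, the most abundant ligands, overlapped between the groups and differed more between replicates than between treatments. INHBA, INHBB and TGFB3 were near the floor of detection throughout. Of the 10 ligands, 7 reached a mean of 1 FPKM in at least 1 group and were tested with limma on log2(FPKM + 1), and 0 had a Benjamini-Hochberg adjusted p under 0.05, against 0.134% of all genes tested (20 of 14909). At an unadjusted p under 0.05, 4 of the 7 were lower with SB and 0 were higher, against 5.16% lower and 4.80% higher among all genes tested. In 4 of the 7 both SB libraries lay below both DMSO libraries, and in 0 both lay above, against 16.0% and 21.5% of all genes tested. BMP2 and BMP7 reached the filter only through their DMSO mean, so these counts cover tested ligands and not the 10. Of the 5 that reached it in both groups, 3 were lower and 0 higher at an unadjusted p under 0.05. Among all 13659 genes that did so, 583 were lower and 595 higher.

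**Figure D1:**
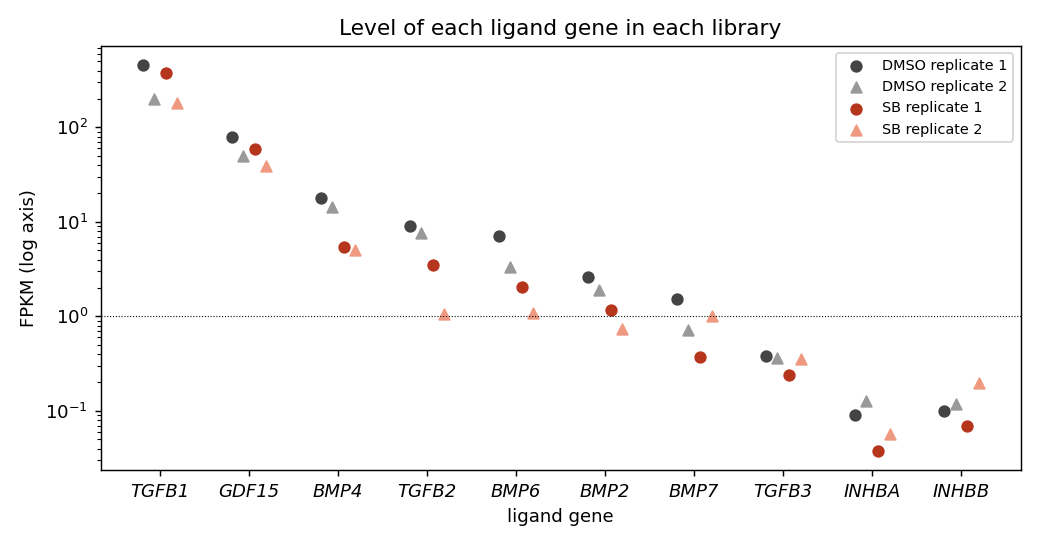
FPKM of each of the 10 ligands in the 4 libraries (log axis), points for DMSO and SB replicates. TGFB1 sits highest, between 183 and 455 FPKM, and INHBA and INHBB lowest, between 0.0377 and 0.198 FPKM.

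TGFB1 (chr19:41301587-41353911 on GRCh38, minus strand), the most widely expressed TGFβ, is secreted in a latent complex and released by proteases, integrins or thrombospondin. It stood at 455 and 202 FPKM in DMSO replicates 1 and 2 and at 381 and 183 FPKM in SB replicates 1 and 2. The groups overlapped, and both replicate 1 libraries were higher than both replicate 2 libraries. The means were 328 ± 179 and 282 ± 140 FPKM (SD, n = 2 each). The log2 fold change was -0.20 (SE 0.53, 95% interval -1.56 to 1.17, limma adjusted p 0.966), and the difference was -0.25 within replicate 1 and -0.14 within replicate 2. Replicate 1 exceeded replicate 2 by 2.25-fold with DMSO and 2.08-fold with SB. Part of its exon sequence, 215 bases, overlaps HNRNPUL1 on the opposite strand, and whether counting used strand is not stated.

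TGFB2 (chr1:218346235-218444619, plus strand), the form known in the heart and in epithelial-to-mesenchymal transition during development, stood lower with SB by an amount that depended on the library. It stood at 8.96 and 7.58 FPKM with DMSO and at 3.51 and 1.05 FPKM with SB. Both SB libraries were below both DMSO libraries, and the SB libraries themselves differed by more than 3-fold. The means were 8.27 ± 0.972 and 2.28 ± 1.74 FPKM, and the log2 fold change was -1.60 (SE 0.41, 95% interval -2.66 to -0.54, limma adjusted p 0.308). Within replicate 1 the difference was -1.14 and within replicate 2 it was -2.06 on the log2 scale. Without SB replicate 2 the log2 fold change was -1.04. TGFB2 shares 1371 exonic bases with TGFB2-OT1 on the same strand, which stood at 0.457 to 0.797 FPKM, so reads there could be split between both. TGFB3 (chr14:75958099-75982991, minus strand), a close relative of TGFB2, stood at 0.385 and 0.366 FPKM with DMSO and at 0.240 and 0.353 FPKM with SB. Both SB values were below both DMSO values. The means, 0.375 FPKM with DMSO and 0.297 FPKM with SB, differed by less than the 2 SB libraries did, and TGFB3 was not tested.

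Summed over the TGFB1 to TGFB3 genes, the level was 464 and 210 FPKM with DMSO and 385 and 185 FPKM with SB, and the groups overlapped. TGFB1 made up 98.0% and 96.2% of that sum with DMSO and 99.0% and 99.2% with SB. TGFB2 made up 1.93% and 3.61% with DMSO and 0.912% and 0.569% with SB, both SB libraries lower. These shares have no test.

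Activins are dimers of inhibin β subunits, activin A of the INHBA product and activin B of the INHBB product. INHBA (chr7:41667168-41705834, minus strand) stood at 0.0911 and 0.127 FPKM with DMSO and at 0.0377 and 0.0571 FPKM with SB, which with the longest transcript is about 12, 16, 4 and 8 fragments. INHBB (chr2:120346143-120351808, plus strand) stood at 0.0986 and 0.117 FPKM with DMSO and at 0.0696 and 0.198 FPKM with SB, about 7, 8, 4 and 15 fragments. INHBA was lower in both SB libraries while the INHBB groups overlapped, and neither was tested. At these levels differences were not detectable at this depth, and endogenous activin RNA was far below that of TGFB1 in every library.

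BMP4 (chr14:53949736-53958761, minus strand) drives mesoderm and blood formation in the embryo, and was also part of the first-stage medium as protein. Its own RNA stood at 17.7 and 14.4 FPKM with DMSO and at 5.49 and 5.04 FPKM with SB. The DMSO and SB libraries were well apart, and replicates within a group were close. The means were 16.1 ± 2.33 and 5.26 ± 0.322 FPKM, 3.05-fold lower with SB. The log2 fold change was -1.44 (SE 0.18, 95% interval -1.92 to -0.96, limma adjusted p 0.0983), which missed the threshold. The difference was -1.53 within replicate 1 and -1.35 within replicate 2.

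BMP6 (chr6:7726797-7881422, plus strand), a BMP known for its role in iron regulation through the liver, stood at 7.13 and 3.33 FPKM with DMSO and at 2.06 and 1.08 FPKM with SB. Both SB libraries were lower than both DMSO libraries, and replicate 1 was the higher within each group. The means were 5.23 ± 2.69 and 1.57 ± 0.692 FPKM. The log2 fold change was -1.23 (SE 0.39, 95% interval -2.24 to -0.23, limma adjusted p 0.402), with -1.41 within replicate 1 and -1.06 within replicate 2, and it was -0.78 without DMSO replicate 1. BMP2 (chr20:6767664-6780280, plus strand), which patterns mesoderm and heart, stood at 2.62 and 1.89 FPKM with DMSO and at 1.16 and 0.742 FPKM with SB. It too was lower in both SB libraries, with means of 2.25 ± 0.517 and 0.953 ± 0.299 FPKM and a log2 fold change of -0.73 (SE 0.25, 95% interval -1.37 to -0.10, limma adjusted p 0.438), with -0.74 within replicate 1 and -0.73 within replicate 2. Adding 1 before taking logs shrinks differences at such low levels, and with a pseudocount of 0.1 the log2 fold change was -1.17 for BMP2 and -1.64 for BMP6.

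BMP7 (chr20:57168748-57266629, minus strand), known in kidney and eye development, did not share this pattern. It stood at 1.54 and 0.720 FPKM with DMSO and at 0.376 and 1.02 FPKM with SB. The groups overlapped, and the difference was -0.89 within replicate 1 and 0.23 within replicate 2. Its means were 1.13 ± 0.583 and 0.698 ± 0.456 FPKM, and the log2 fold change was -0.33 (SE 0.33, 95% interval -1.19 to 0.54, limma adjusted p 0.863). Without SB replicate 1 it was -0.05, without DMSO replicate 2 it was -0.61 and without SB replicate 2 it was -0.60, and with a pseudocount of 0.1 it was -0.67.

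The 4 BMPs summed to 29.0 and 20.3 FPKM with DMSO and to 9.09 and 7.88 FPKM with SB. Every SB sum was below every DMSO sum. BMP4 made up most of it in all libraries, at 61.1% and 70.8% with DMSO and 60.4% and 63.9% with SB. The BMP7 share stood at 5.33% and 3.54% with DMSO and at 4.13% and 12.9% with SB, a difference carried by SB replicate 2.

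GDF15 (chr19:18374731-18389176, plus strand) is a divergent member of the family, induced by cell stress, whose receptor is GFRAL with RET. It stood at 78.8 and 49.4 FPKM with DMSO and at 59.6 and 38.7 FPKM with SB. The groups overlapped, and replicate 1 was the higher by 1.59-fold with DMSO and 1.54-fold with SB. The means were 64.1 ± 20.8 and 49.2 ± 14.8 FPKM, and the log2 fold change was -0.37 (SE 0.33, 95% interval -1.22 to 0.48, limma adjusted p 0.826). The difference was -0.40 within replicate 1 and -0.35 within replicate 2. It was -0.04 without DMSO replicate 1, -0.70 without DMSO replicate 2, -0.68 without SB replicate 1 and -0.07 without SB replicate 2. Its receptor gene GFRAL was listed at 0 in all 4 libraries, and RET was at most 0.250 FPKM.

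**Figure D2:**
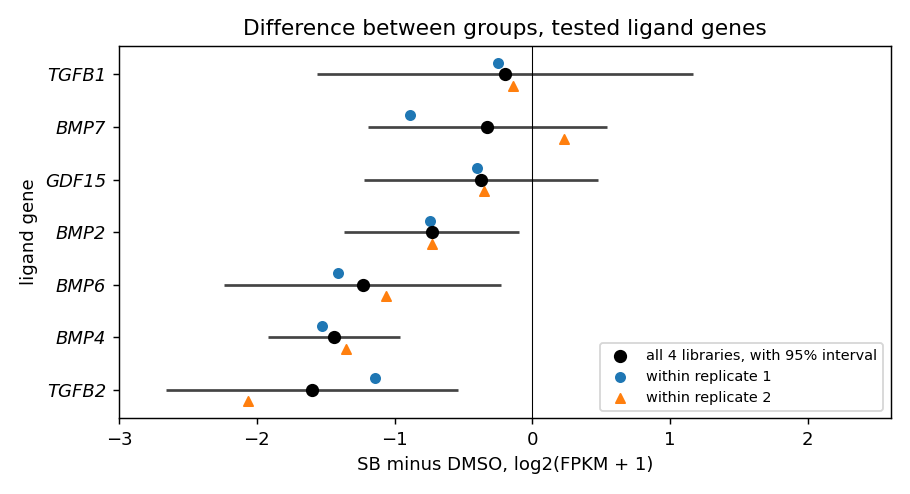
Log2 fold change (SB minus DMSO) of the 7 tested ligands on the log2(FPKM + 1) scale with 95% limma intervals, and the differences within replicate 1 and replicate 2. The intervals of TGFB2, BMP4, BMP6 and BMP2 lie below 0, and those of TGFB1, BMP7 and GDF15 cross it.

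By level, the DMSO order was TGFB1, GDF15, BMP4, TGFB2, BMP6, BMP2, BMP7, TGFB3, INHBA and INHBB, and only INHBA and INHBB overlapped as neighbours. With SB the order down to TGFB3 was the same, but TGFB2 and BMP6, BMP6 and BMP2, and BMP2 and BMP7 each overlapped. INHBB stood above INHBA with SB. These ranks are a description.

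The gap between the replicate numbers was large for some of the ligands. It was 1.11 for TGFB1, 0.73 for BMP6, 0.68 for TGFB2 and 0.64 for GDF15 (mean log2 difference of replicate 1 and 2), and 0.19 for BMP4. Among all tested genes 57.5% had a gap larger than their absolute log2 fold change. Transcript GC content was 63.5% for TGFB1 and 62.9% for GDF15 and 38.9% for TGFB2, and across 13695 genes Spearman's rho of GC against the gap was 0.63, a description over genes. The part of GC content and of the replicate number in these results was not tested.

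**Figure D3:**
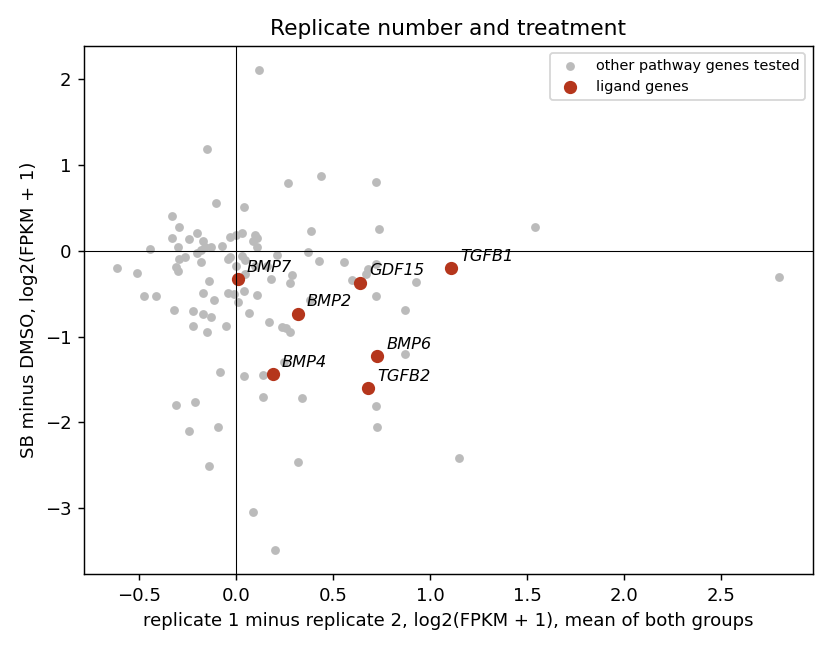
Replicate 1 minus replicate 2, averaged over both groups (horizontal axis), against SB minus DMSO (vertical axis), both in log2(FPKM + 1), for the 7 tested ligands in red and the other tested pathway genes in grey. TGFB1 lies at a gap of 1.11 with a treatment difference of -0.20, and BMP4 at a gap of 0.19 with a difference of -1.44.

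The profile of each tested ligand over the 4 libraries was compared with 107 tested pathway genes and ligands (Euclidean distance of centred log2 values). The nearest were BGN, a proteoglycan that binds TGFβ and BMP ligands, for BMP4 (0.14), MSX1, a BMP-responsive homeobox factor, for BMP2 (0.18), LTBP2, a latent TGFβ binding protein relative, for BMP6 (0.24) and SMAD7, the inhibitory SMAD, for TGFB2 (0.54). For GDF15 it was the protease gene FURIN (0.11), for TGFB1 it was ID4 (0.26) and for BMP7 it was CHRD (0.41).

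The promoters of TGFB2, BMP4 and BMP6, tested ligands that stood lower with SB, are printed with that of TGFB1. BMP2, which also stood lower, was not matched to a RefSeq promoter. TGFB1 was the most abundant ligand and overlapped between the groups. The sequences show where the letters CAGAC, a SMAD3/SMAD4 recognition motif, and GGCGCC, a GC-rich SMAD motif, occur. The 250 bases before a RefSeq start on GRCh38.p14 are given 5′ to 3′ on the gene's strand, with matches on either strand (CAGAC or GTCTG) in capitals. TGFB2 lies at chr1:218345086-218345335 on the plus strand, BMP4 at chr14:53955051-53955300 on the minus strand, BMP6 at chr6:7725849-7726098 on the plus strand and TGFB1 at chr19:41353923-41354172 on the minus strand. None of the 4 windows overlaps an exon of its own gene in GENCODE 29. RefSeq and the deposited table can place a start differently: the TGFB2 and BMP6 windows end upstream of the gene starts given above, and that of BMP4 lies inside the gene. BMP4 has 3 RefSeq windows, and the printed one is the only one free of its exons. For each of the 4 printed windows, the bases shortly after the start were not found in a GENCODE 29 transcript of the gene. For the other BMP4 windows they were found, so those starts are the ones that GENCODE 29 bears out. The motifs do not overlap each other.
TGFB2: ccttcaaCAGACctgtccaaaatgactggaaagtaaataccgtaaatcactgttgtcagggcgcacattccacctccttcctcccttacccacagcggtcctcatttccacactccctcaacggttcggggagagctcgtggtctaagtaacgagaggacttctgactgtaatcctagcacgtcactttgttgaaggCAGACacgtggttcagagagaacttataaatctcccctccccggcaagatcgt
BMP4: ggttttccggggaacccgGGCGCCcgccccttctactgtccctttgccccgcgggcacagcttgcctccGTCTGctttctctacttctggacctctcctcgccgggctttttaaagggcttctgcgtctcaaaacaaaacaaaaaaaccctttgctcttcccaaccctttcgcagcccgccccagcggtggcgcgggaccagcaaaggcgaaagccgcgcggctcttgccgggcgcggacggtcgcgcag
BMP6: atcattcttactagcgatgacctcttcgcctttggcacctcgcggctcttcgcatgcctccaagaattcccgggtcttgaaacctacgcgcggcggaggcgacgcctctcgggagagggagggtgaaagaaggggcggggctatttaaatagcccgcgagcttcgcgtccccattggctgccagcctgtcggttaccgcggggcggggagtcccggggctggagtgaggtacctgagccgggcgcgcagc
TGFB1: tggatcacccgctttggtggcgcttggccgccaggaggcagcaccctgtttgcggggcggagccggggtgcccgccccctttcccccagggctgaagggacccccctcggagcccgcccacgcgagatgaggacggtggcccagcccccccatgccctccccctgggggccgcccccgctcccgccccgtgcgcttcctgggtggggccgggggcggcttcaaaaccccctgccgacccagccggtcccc
The TGFB2 window held 2 CAGAC matches, the BMP4 window 1 of CAGAC and 1 of GGCGCC, and the BMP6 and TGFB1 windows none of either. Of the other BMP4 windows, chr14:53953396-53953645 held 1 CAGAC match and 0 of GGCGCC, and chr14:53954489-53954738 held 0 of either, so the count for BMP4 depends on the start. Among ligands not printed, GDF15, which overlapped between the groups, held 1 CAGAC match, in a window with 241 bases in its exons. INHBB, which also overlapped, held 0 of CAGAC and 2 of GGCGCC. The TGFB3 windows held 0 and 2 CAGAC matches, and the INHBA window 0 of either. Among 35116 promoters of the same length, 38.0% held CAGAC and 16.4% held GGCGCC, so these matches are common and are a description of letters, not of binding.

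The rest of the pathway was read from lists, written by hand, of 137 genes besides the ligands, of which 101 were tested. The lists share genes, so their counts are not independent. SMAD7, SKIL, PMEPA1 and TGIF1 are in the lists of SMADs and of SMAD2/3 targets. SMAD6, SMAD7, SMAD9, BAMBI and NOG are also BMP targets, and LTBP2 is both a processing gene and a SMAD2/3 target. COL1A1 and COL1A2 are both SMAD2/3 targets and mesenchymal markers. DCN is also in the antagonist and mesenchymal lists, and TDGF1 in the receptor and pluripotency lists. Among the 101 tested, 4 passed the adjusted threshold, SOST, HTRA1 and TGFBI lower and THBS1 higher. The median log2 fold change of the 101 was -0.27 against 0.04 over all genes. At an unadjusted p under 0.05, 34 were lower and 6 were higher. A gene that reached 1 FPKM in 1 group only had to differ to be tested, which was the case for 8 genes through DMSO and 1 through SB. Among the 92 that reached it in both groups, 28 were lower and 5 were higher, and the same 4 calls stood. The calls of SOST, HTRA1, TGFBI and THBS1 were each lost when any single library was left out, with adjusted p between 0.0652 and 0.228 over them.

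Among other family ligands, 6 of 23 were tested and 0 were called by limma, with 1 lower (GDF1) and 1 higher (LEFTY1) at an unadjusted p under 0.05. Both reached the filter through 1 group only, and of the 4 that reached it in both groups 0 passed at an unadjusted p. LEFTY1, an inhibitor of nodal signaling, stood at 0.427 and 0.739 FPKM with DMSO and at 2.57 and 2.61 FPKM with SB, the higher pair (log2 fold change 1.19, limma adjusted p 0.200, or 2.02 with a pseudocount of 0.1). GDF1 stood at 3.07 and 3.67 FPKM with DMSO and 0.0792 and 0.447 FPKM with SB (log2 fold change -1.80, limma adjusted p 0.117, or -3.46 with a pseudocount of 0.1), but all 2517 of its exonic bases lie in CERS1 on the same strand, so its values are uncertain. GDF11, GDF3, GDF7 and AMH had log2 fold changes of 0.25, 0.15, 0.21 and 0.28.

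Among receptors, 13 of 17 were tested, 0 were called by limma and 3 were lower at an unadjusted p under 0.05, or 2 among the 12 that reached the filter in both groups. The targets of SB431542 were present: TGFBR1 stood at 10.2 and 14.7 FPKM with DMSO and at 10.7 and 14.4 FPKM with SB, and ACVR1B between 8.33 and 9.62 FPKM, while ACVR1C was at most 0.0287 FPKM. ENG, a co-receptor for TGFβ and BMP9, stood at 64.2 and 47.9 FPKM with DMSO and at 17.8 and 14.7 FPKM with SB (log2 fold change -1.72, limma adjusted p 0.0986). BMPR2, the type II BMP receptor, and TDGF1, the nodal co-receptor, had log2 fold changes of -0.69 and -0.70, but their means were 1.73-fold and 4.06-fold lower with SB, and with a pseudocount of 0.1 the values were -0.77 and -1.65.

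Among processing and latency genes, 17 of 20 were tested and 2 were called. At an unadjusted p under 0.05, 3 were lower and 4 were higher, and all 17 reached the filter in both groups. HTRA1, a secreted protease that acts on TGFβ family signaling, fell from 41.7 and 45.9 FPKM to 5.04 and 3.89 FPKM (log2 fold change -3.04, limma adjusted p 0.0353). THBS1, whose product activates latent TGFβ, rose from 17.2 and 16.1 FPKM to 78.9 and 71.6 FPKM (log2 fold change 2.11, limma adjusted p 0.0463). FBN2, a microfibril protein, had a log2 fold change of -0.77.

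Among antagonists, 9 of 17 were tested, 1 was called and 5 were lower at an unadjusted p under 0.05, or 3 among the 6 that reached the filter in both groups. SOST, encoding sclerostin, a secreted Wnt antagonist that also binds BMPs, fell from 24.9 and 20.8 FPKM to 1.24 and 1.01 FPKM (log2 fold change -3.49, limma adjusted p 0.0232). BGN had a log2 fold change of -1.45 (limma adjusted p 0.0845). NOG, the BMP antagonist noggin, stood at 2.32 and 1.46 FPKM with DMSO and at 0.190 and 0.144 FPKM with SB (log2 fold change -1.29, limma adjusted p 0.217, or -2.87 with a pseudocount of 0.1), and was tested through its DMSO mean only.

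Of the SMADs and their regulators, 15 of 15 were tested and 0 were called by limma, with 6 lower at an unadjusted p under 0.05, all among the 14 that reached the filter in both groups. SMAD7, SKIL and PMEPA1, negative regulators induced by TGFβ signaling, had log2 fold changes of -2.05, -1.76 and -1.81. Of SMAD2/3 targets, 19 of 21 were tested and 1, TGFBI, was called, falling from 29.7 and 31.0 FPKM to 4.10 and 4.93 FPKM (log2 fold change -2.51, limma adjusted p 0.0365). The list median was -1.20, with 14 lower at an unadjusted p under 0.05 and 0 higher. Among the 17 that reached the filter in both groups, 12 were lower and the median was -1.20. FN1 and COL1A1, matrix genes, had log2 fold changes of -2.10 and -2.46 (limma adjusted p 0.0646 each).

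Of BMP targets, 12 of 14 were tested and 0 were called by limma, with 8 lower at an unadjusted p under 0.05 and a median of -0.85. Among the 10 that reached the filter in both groups, 7 were lower. ID1 stood at 470 and 505 FPKM with DMSO and 179 and 187 FPKM with SB (log2 fold change -1.41, limma adjusted p 0.0803), and ID3 had a log2 fold change of -0.87. Of stress and p53 targets, which bear on GDF15, 20 of 20 were tested and 0 were called by limma, with 1 lower (CDKN1A, -0.72) and 1 higher (DDIT3, 0.51) at an unadjusted p under 0.05, and RRM2B at -0.53. Their median was -0.04.

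**Figure D4:**
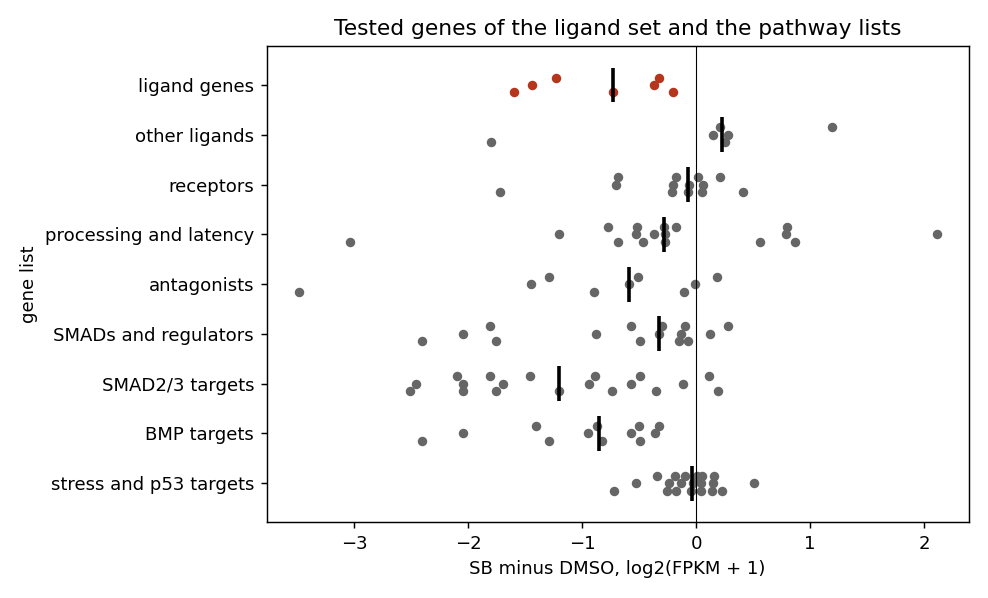
Log2 fold changes of the tested genes in the ligand set and the pathway lists, each gene a point and each list's median a black bar (horizontal axis, SB minus DMSO in log2(FPKM + 1)). The SMAD2/3 target and BMP target lists have medians of -1.20 and -0.85, and the median of all tested genes is 0.04.

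Markers of other cell types that a differentiating culture can hold also differed in level between the groups. The summed level of 14 endoderm and liver markers was 295 and 334 FPKM with DMSO and 32.8 and 35.7 FPKM with SB, 4 of its 12 tested genes were called lower, and ALB was under 1 FPKM throughout. The sum of 11 mesenchymal markers was 370 and 323 FPKM against 179 and 175 FPKM, that of 9 cardiac markers 97.6 and 61.3 FPKM against 24.3 and 14.9 FPKM, and that of 7 epithelial markers 255 and 252 FPKM against 117 and 124 FPKM, with 0 called by limma in each, and DCN, TCF21 and POSTN, TNNT2, MYH6 and MYH7, and KRT7 under 1 FPKM throughout. At an unadjusted p under 0.05, 5 of 8, 4 of 5 and 6 of 6 of their tested genes were lower, or 4 of 7, 3 of 3 and 6 of 6 of those that reached the filter in both groups. For the endoderm and liver list, 5 of its 12 tested genes reached it in both groups, the 4 called among them. The collagen genes COL1A1, COL1A2 and COL3A1 made up most of the mesenchymal sum. Their means were 93.0, 117 and 107 FPKM with DMSO and 16.0, 91.9 and 51.6 FPKM with SB. Endothelial markers summed to 1857 and 1633 FPKM against 1814 and 1625 FPKM, with overlap. The hematopoietic sum was 426 and 359 FPKM with DMSO and 676 and 568 FPKM with SB, and the megakaryocyte sum was 165 and 182 FPKM against 528 and 666 FPKM, with 0 called by limma and 5 and 8 higher at an unadjusted p under 0.05 (5 and 7 among those that reached the filter in both groups), PTPRC and GP6 being under 1 FPKM. Pluripotency markers summed to 114 and 129 FPKM against 147 and 160 FPKM, NANOG and SOX2 being under 1 FPKM. Of the 6 tested, 0 were called by limma, and 2 were higher and 1 lower at an unadjusted p under 0.05. Of the 3 that reached the filter in both groups, 1 was higher and 0 were lower. None of the markers in these lists was at 0 in all libraries. The part of these shifts in the ligand values was not tested.

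**Figure D5:**
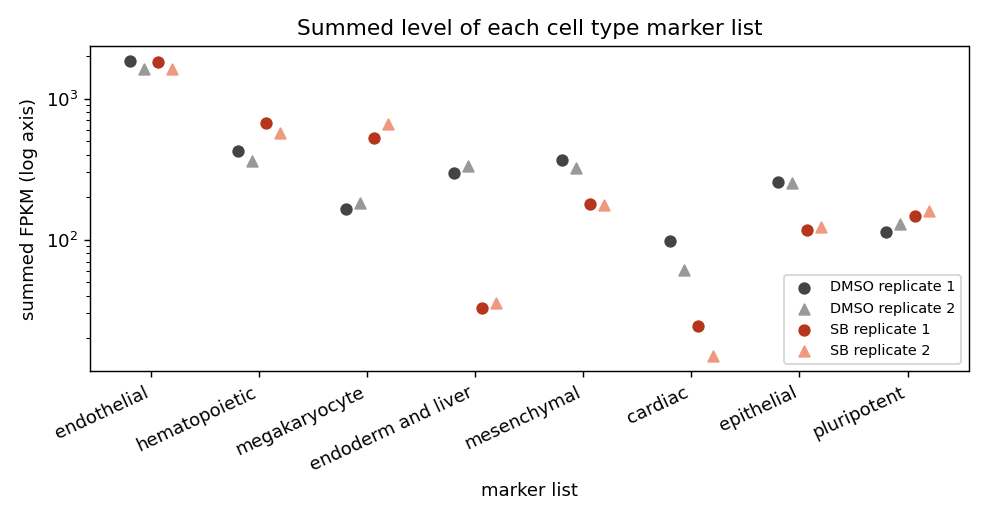
Summed FPKM of 8 marker lists in the 4 libraries (log axis). The endoderm and liver sum stands at 295 and 334 FPKM with DMSO and at 32.8 and 35.7 FPKM with SB, and the endothelial sums overlap.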

How the data were processed

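RNA-seq libraries were made with the Illumina TruSeq kit from 2 ug of total RNA. The table that the authors deposited holds FPKM (fragments for each kilobase of a transcript, relative to the mapped total), with 58365 rows, 1 column per library and no counts. The submitters' processing notes name BWA, Bowtie and RSEM and the build hg19, with no role or version. Loci in the table matched GENCODE 29 on GRCh38 for 55592 of 58229 identifiers, so positions are given on GRCh38. Strand use in counting and scaling between libraries are not given in the sources used here. As there are no counts, a count model was not used.

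Groups came from the sample titles. Values were put on the log2(FPKM + 1) scale. The 14909 genes whose mean reached 1 FPKM in either group were kept, and the 2 groups of 2 libraries were compared over the whole table with limma 3.58.1 in R 4.3.3 (empirical Bayes with trend, two-sided, Benjamini-Hochberg threshold 0.05). The code was tested on simulated data. Fold changes on this scale understate low genes. An exact permutation test of 2 against 2 cannot give a p below 0.333. Relative depth came from the steps of low values of single-exon genes, and approximate fragments assume the longest transcript. The ligands, the gene lists and the naming rule were chosen with earlier results of these data known. Named were all ligands, up to 3 tested genes per pathway list by smallest unadjusted p, every tested other ligand, the nearest profile of each ligand, and PECAM1. The direct targets of SB431542, GFRAL, RET, TGFB2-OT1 and genes overlapping a ligand are also given and were chosen after their values were seen. Alternatives tried were another pseudocount, 2 other filters, 3 scalings, the replicate number as a block and leaving out each library. Promoter sequences are from RefSeq on GRCh38.p14, which held 8 of the 10 ligands, and BMP2 and BMP7 were not matched. The value of 1 marker gene is not reported here.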

Additional observations from a re-analysis of the deposited data

How the results depend on the processing

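Under 11 alternatives the log2 fold changes of the tested ligands kept their direction in 71 of 73 values, and both exceptions were TGFB1, at 0.39 without DMSO replicate 1 and 0.33 without SB replicate 2. The 2 other filters and the replicate block leave a log2 fold change unchanged by design, so the values under them could not reverse. The 71 therefore overstate how far direction was put to a test. When a library was left out TGFB1 ranged from -0.78 to 0.39, GDF11 from -0.19 to 0.69, AMH from -0.57 to 1.14 and PECAM1 from -0.24 to 0.03. Their sign thus changed with the library left out. Within replicates 1 and 2 the sign was the same: -0.25 and -0.14 for TGFB1, and 0.10 and 0.40 for GDF11. For AMH the values were 0.11 and 0.46, and for PECAM1 -0.12 and -0.10. BMP4 ranged from -1.58 to -1.3, TGFB2 from -2.17 to -1.04, BMP6 from -1.69 to -0.78, BMP2 from -0.9 to -0.57, GDF15 from -0.7 to -0.04 and BMP7 from -0.61 to -0.05. BMP7 was not tested without DMSO replicate 1, and BMP2, BMP6 and BMP7 were not tested with a filter of 5 FPKM in 2 libraries.

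The count of all genes called, 20, was 31 with quantile normalization, 0 without a filter (2739 at an unadjusted p under 0.05) and 0 to 14 when a library was left out. The count of other pathway genes called, 4, was 0 without a filter (44 at an unadjusted p under 0.05) and 0 when any library was left out. The cause was not tested. Replicate numbers are not stated to mark a shared batch, but the differences of replicate 1 and 2 in both groups correlated at 0.53 over genes. With the replicate number as a block, 1564 genes were called (744 lower and 820 higher), 45 other pathway genes (38 lower and 7 higher) and 4 ligands, TGFB2 (limma adjusted p 0.0304), BMP4 (0.00694), BMP6 (0.0217) and GDF15 (0.0396). In the other alternatives that kept all 4 libraries, 0 ligands were called by limma. At an unadjusted p under 0.05, 3 of 10 ligands passed without a filter, against 2739 of 29447 genes. With the filter of 5 FPKM in 2 libraries, 2 of 4 ligands passed, against 923 of 10212 genes. With the other pseudocount and the 3 scalings, 4 of 7 ligands passed, against 1377 to 1481 of 14909 or 14926 genes. These ligand counts cover only settings that kept all 4 libraries, so they do not show how the 4 depend on single libraries. When a library was left out, the weakest log2 fold changes were -1.3 for BMP4, -1.04 for TGFB2, -0.78 for BMP6 and -0.57 for BMP2. With 2 libraries a group, absolute depth unknown and low ligands at a few fragments, small differences cannot be seen.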
